A study of Mus musculus with 2 samples.

Results

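The genes described are the NFAT transcription factors Nfatc1, Nfatc2, Nfatc3 and Nfat5, the calcineurin subunits Ppp3ca, Ppp3cb, Ppp3cc and Ppp3r1, and the calcineurin inhibitors Rcan1 and Rcan3. They were taken by gene symbol from the GENCODE M21 tables, which makes 10 genes of the 55536 annotated. Regulatory T cells (Treg cells), a CD4 T cell type that depends on the transcription factor Foxp3 and restrains immune responses, were profiled by polyA-selected RNA-seq. They were primary cells of a male mouse at 9 weeks of age. The biosample gave 2 libraries, labelled technical replicates 1 and 2 of biological replicate 1, so there is 1 group and no treated or mutant sample. The sources used here do not give the strain, the sorting markers or the number of cells, and nothing measured here speaks to variation between mice.

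When a T cell receptor is engaged, calcium enters the cell and binds calmodulin, which switches on the phosphatase calcineurin. Calcineurin is a dimer of a catalytic A subunit (encoded by Ppp3ca, Ppp3cb or Ppp3cc) and a calcium-binding B subunit (encoded by Ppp3r1 in most tissues). It removes phosphates from Nfatc1, Nfatc2 and Nfatc3, which then enter the nucleus and, in Treg cells, can bind DNA together with Foxp3. Nfat5 shares the DNA-binding domain but responds to osmotic stress rather than to calcineurin. Proteins of the Rcan family bind calcineurin and restrain it, and Rcan1 is itself an NFAT target in several cell types.

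Estimated counts over annotated genes came to 34697128 in library 1 and 32049199 in library 2. A gene was called detected where both libraries had at least 1 TPM, which held for 23.9% of all annotated genes and 48.0% of protein-coding genes. The label was checked on marker lists: 8 of 8 T cell and Treg genes were detected, with a summed level of 5552 TPM in library 1 and 5155 TPM in library 2, and Foxp3 itself stood at 108.3 and 110.7 TPM. Summed levels were 12.8 and 11.8 TPM for 4 B cell genes, with 3 of them detected and Pax5 at 0.02 and 0.19 TPM. They were 20.8 and 14.7 TPM for 5 myeloid genes (2 detected) and 3.47 and 2.84 TPM for 3 natural killer genes (2 detected, Ncr1 at 0 in both). For 3 red cell genes, all detected, they were 215.5 and 203.9 TPM. How far such other cells add to the levels below was not tested.

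All 10 genes were detected, and their median was 60.4 TPM against 22.8 TPM over all detected genes. The median of the detected genes lay below 8 of them and above Nfat5 and Rcan1. All 10 are protein-coding genes, and the median of detected protein-coding genes was 31.1 TPM, above Ppp3cb (25.4 TPM) as well. Together the 10 genes summed to 680.4 TPM in library 1 and 619.3 TPM in library 2. The order of mean levels was Nfatc1, Nfatc3, Ppp3r1, Ppp3ca, Ppp3cc, Nfatc2, Rcan3, Ppp3cb, Nfat5 and Rcan1. Of the 9 pairs of neighbours in that order, 7 had library ranges that did not overlap. The ranges of Ppp3r1 and Ppp3ca overlapped, as did those of Nfatc2 and Rcan3, so neither pair can be ordered. Some other neighbours changed places with the table or the transcripts counted. With M4 read counts per mean transcript length of the gene, Ppp3cc stood above Ppp3ca, Nfatc2 above Ppp3r1 and Ppp3cb above Rcan3. M4 counts were an uneven part of the M21 counts between genes, as given below. With protein-coding transcripts only Ppp3cc stood above Ppp3ca, Rcan3 above both Ppp3ca and Nfatc2, and Rcan1 above Nfat5. Nfatc1 and Nfatc3 were first and second in each of these orders. The protein-coding level of Nfat5 depends on how reads are divided among its transcripts, as described below. TPM are per transcript length, so these levels can be set against each other between genes. In bulk RNA, fewer cells that use a gene and less RNA per cell cannot be told apart.

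**Figure D1:**
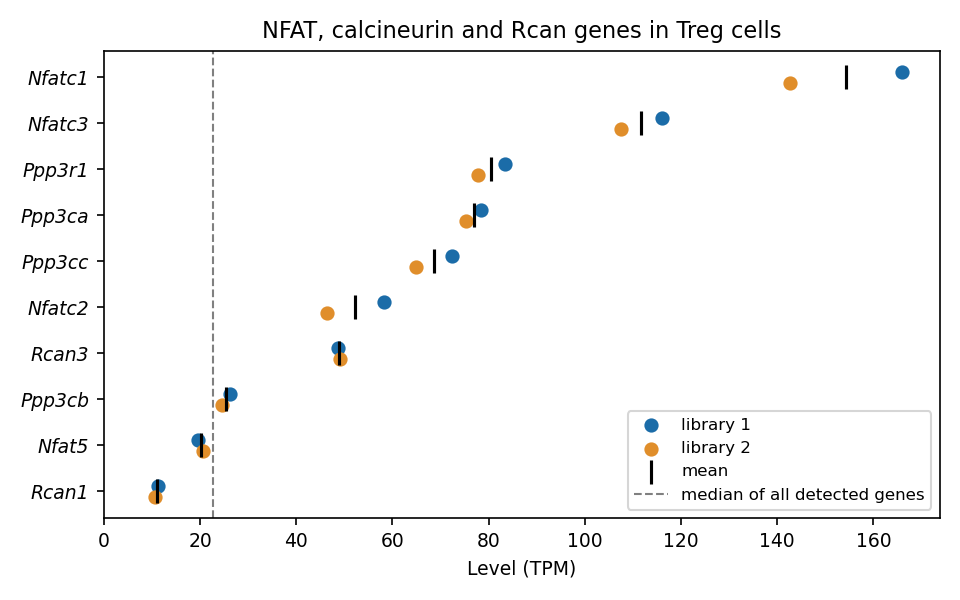
Level of each gene in TPM (horizontal axis) in library 1 and library 2 (points), with their mean (bar), in order of the mean. Nfatc1 stands highest at 166.0 and 142.7 TPM, Rcan1 lowest at 11.3 and 10.7 TPM, and the dashed line marks the 22.8 TPM median of all detected genes.

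Among the catalytic subunits, Ppp3ca and Ppp3cc lay close together and Ppp3cb was well below both. Ppp3ca (ENSMUSG00000028161.17; chromosome 3, 136670124 to 136937727, plus strand, GRCm38), which encodes the alpha form that prevails in brain, stood at 78.5 TPM in library 1 and at 75.4 TPM in library 2, a mean of 76.9 ± 2.20 (SD, n = 2 technical libraries, as throughout). Ppp3cc (ENSMUSG00000022092.11; chromosome 14, 70217865 to 70289471, minus strand), the gamma form best known from testis, stood at 72.4 and 64.8 TPM, a mean of 68.6 ± 5.36. Ppp3cb (ENSMUSG00000021816.11; chromosome 14, 20499364 to 20546573, minus strand), whose loss in mice impairs T cell development and responses, stood at 26.2 and 24.6 TPM, a mean of 25.4 ± 1.15. The gamma form was thus close to the alpha form, and the beta form was the least abundant of the catalytic genes in both libraries.

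As a share of the summed catalytic TPM, Ppp3ca took 44.3% in library 1 and 45.7% in library 2, Ppp3cc 40.9% and 39.3%, and Ppp3cb 14.8% and 14.9%. The ratio of Ppp3ca to Ppp3cc was 1.08 and 1.16. The order of these leading subunits depended on how they were counted. With M4 read counts divided by the mean transcript length of the gene, Ppp3cc led with 47.1% and 47.5%, and Ppp3ca followed with 41.1% in each library. That length comes from the M21 estimates, so it carries their division of reads among transcripts. With protein-coding transcripts of the M21 tables only, Ppp3cc also led, with 43.7% and 43.1% against 38.9% and 39.2% for Ppp3ca. Ppp3cb was lowest in each of these counts, at 11.8% and 11.4% with the M4 counts.

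Ppp3r1 (ENSMUSG00000033953.10; chromosome 11, 17159263 to 17200375, plus strand), the regulatory B subunit that every calcineurin dimer needs in T cells, stood at 83.4 and 77.7 TPM, a mean of 80.6 ± 4.02. The summed catalytic TPM were 2.12 times the Ppp3r1 TPM in each library, but with M4 counts per length the ratio was 6.29 and 6.04. With protein-coding transcripts only it was 1.64 in each library. Ppp3r1 shares 462 exon bases with Wdr92 on the same strand, a gene at 25.8 and 24.5 TPM, and reads from those bases cannot be assigned to either gene with certainty. The model's posterior standard deviation of the Ppp3r1 count was small beside the count, at 2.61 and 3.77. The M4 tables gave Ppp3r1 715 and 682 reads against 4558 and 4136 estimated counts in the M21 tables. That is 15.7% and 16.5%, the lowest shares among the 10 genes, where all genes together had 27.6% and 27.9%. Rcan3 was close, at 16.2% and 17.1%. The share was uneven among other genes too. In library 1 the kinase gene Lrrk2 had 64 M4 reads against 66 estimated counts. The interleukin-2 receptor gene Il2ra had 1813 against 24361, and the anchor protein gene Akap5 had 9 against 165. Orders, shares and ratios by M4 counts are therefore not an equal measure of relative levels. The cause of the uneven share was not tested. Ppp3r2, the B subunit gene of testis, had no estimated count in either library, and 1 read and 0 reads in the M4 tables.

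Nfatc1 was the most abundant NFAT gene and Nfat5 the least, with Nfatc3 ahead of Nfatc2. Nfatc1 (ENSMUSG00000033016.16; chromosome 18, 80606205 to 80713071, minus strand) stood at 166.0 TPM in library 1 and at 142.7 TPM in library 2, a mean of 154.3 ± 16.5, which placed it 1181st of 13275 detected genes. Nfatc3 (ENSMUSG00000031902.10; chromosome 8, 106058840 to 106130537, plus strand), which is prominent in thymocytes, stood at 116.1 and 107.4 TPM, a mean of 111.8 ± 6.14. Its exons share 219 bases with Esrp2 on the opposite strand, a gene at 1.00 and 3.66 TPM. Nfatc2 (ENSMUSG00000027544.16; chromosome 2, 168476410 to 168601657, minus strand), regarded as the main NFAT protein of resting T cells, stood at 58.2 and 46.4 TPM, a mean of 52.3 ± 8.35. Nfat5 (ENSMUSG00000003847.16; chromosome 8, 107293470 to 107379517, plus strand) stood at 19.6 and 20.6 TPM, a mean of 20.1 ± 0.721.

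Of the summed TPM of these genes, Nfatc1 took 46.1% in library 1 and 45.0% in library 2, Nfatc3 32.3% and 33.9%, Nfatc2 16.2% and 14.6%, and Nfat5 5.44% and 6.50%. Nfatc1 stood at 2.85 and 3.08 times the level of Nfatc2, and at 5.11 and 6.22 times with protein-coding transcripts only. With M4 counts per length, Nfatc1 and Nfatc3 came closer, at 40.3% and 41.4% for Nfatc1 and 37.5% and 37.8% for Nfatc3. The order of the NFAT genes was kept. As M4 counts are an uneven part of the M21 counts, the narrower gap is no better measure of the relative levels. With protein-coding transcripts only, Nfatc1 took 57.2% and 56.2% and Nfat5 1.32% and 2.21%. For Nfat5 this depends on how reads are divided between near-identical transcripts, as described below. The calcium-regulated Nfatc1, Nfatc2 and Nfatc3 together had 1.92 and 1.80 times the summed TPM of the catalytic subunits. This ratio depended on the count, at 1.30 and 1.28 with M4 counts per length and 2.35 and 2.17 with protein-coding transcripts only. Nfatc4, the remaining calcium-regulated family member, had 1 estimated count in library 1 and 0 in library 2 and was not detected.

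**Figure D2:**
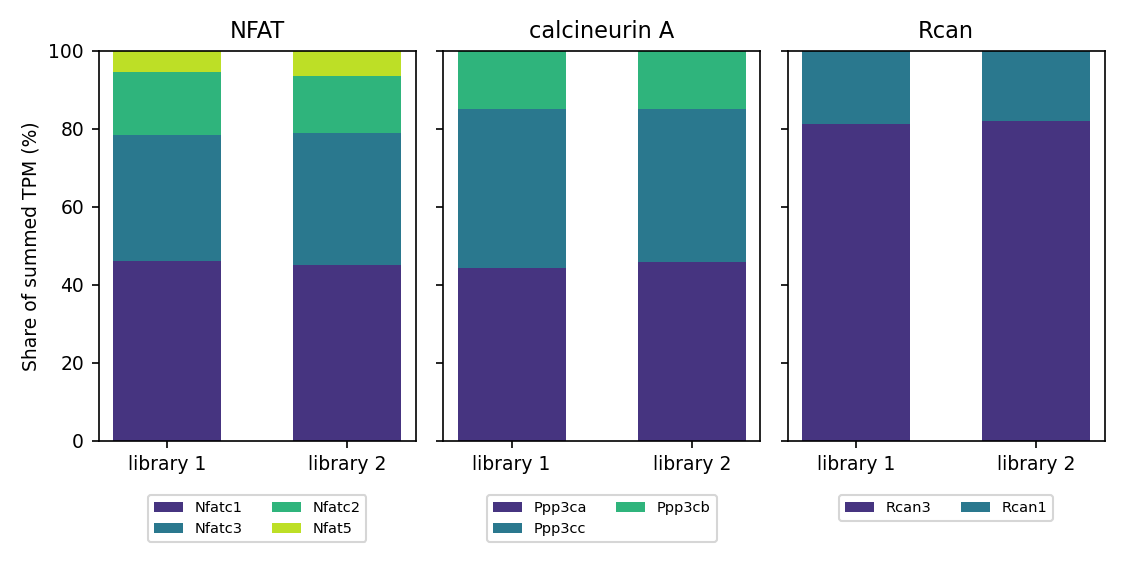
Share of each gene in the summed TPM of its family (vertical axis, percent), as stacked bars for library 1 and library 2. Nfatc1 is the largest NFAT share at 46.1% and 45.0%, Ppp3ca and Ppp3cc take most of the catalytic sum, and Rcan3 takes 81.1% and 82.1% of the Rcan sum.

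Of the inhibitors, Rcan3 was several times higher than Rcan1. Rcan3 (ENSMUSG00000059713.12; chromosome 4, 135412308 to 135433853, minus strand) stood at 48.6 and 49.0 TPM, a mean of 48.8 ± 0.297. Rcan1 (ENSMUSG00000022951.16; chromosome 16, 92391953 to 92470867, minus strand), the best studied member of the family, stood at 11.3 and 10.7 TPM, a mean of 11.0 ± 0.431, on 543 and 473 estimated counts. The ratio of Rcan3 to Rcan1 was 4.30 in library 1 and 4.58 in library 2, and both genes together reached 0.338 and 0.362 times the summed catalytic TPM. With M4 counts per length these values were lower, at 2.54 and 2.92 for Rcan3 over Rcan1 and 0.134 and 0.146 for the Rcan sum over the catalytic sum. By the same counts Rcan3 took 71.8% and 74.5% of the Rcan sum, against 81.1% and 82.1% by TPM. With protein-coding transcripts only, the Rcan sum was higher against the catalytic sum, at 0.492 and 0.519. Rcan3 over Rcan1 was then 4.30 and 4.87. Rcan2, the remaining family member, had 1 estimated count in each library and was not detected.

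The transcript tables divide each gene's reads among its annotated transcripts, 69 for these genes, of which 13 had 0 estimated counts in both libraries. Protein-coding transcripts held all but a trace of the TPM of Nfatc1 and Rcan3 and least of Nfat5. They made up 100% of Nfatc1 TPM in library 1 and 99.7% in library 2, and 100% of Rcan3 in each. For Ppp3r1 the protein-coding share was 89.1% and 89.5%, for Ppp3cb 81.1% and 82.2%, for Nfatc3 75.8% and 76.8%, and for Ppp3cc 73.6% and 75.7%. It was 60.3% and 59.2% for Ppp3ca and 55.8% and 49.4% for Nfatc2. For Rcan1 it was 100% and 94.0%. Nfat5 stood apart from the other 9, with 19.5% and 27.1%. The remaining TPM went to transcripts annotated as retained intron, as processed transcript or as targets of nonsense-mediated decay, a pathway that degrades RNA with an early stop codon. Many of these are short, so a given number of reads makes a larger share of TPM than of counts. For Nfat5 the protein-coding share also depends on the model's division of reads between near-identical transcripts. Nfat5-206, annotated as a decay target, held 17.3% and 16.8% of TPM and differs from the protein-coding Nfat5-214 by 63 exon bases.

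**Figure D3:**
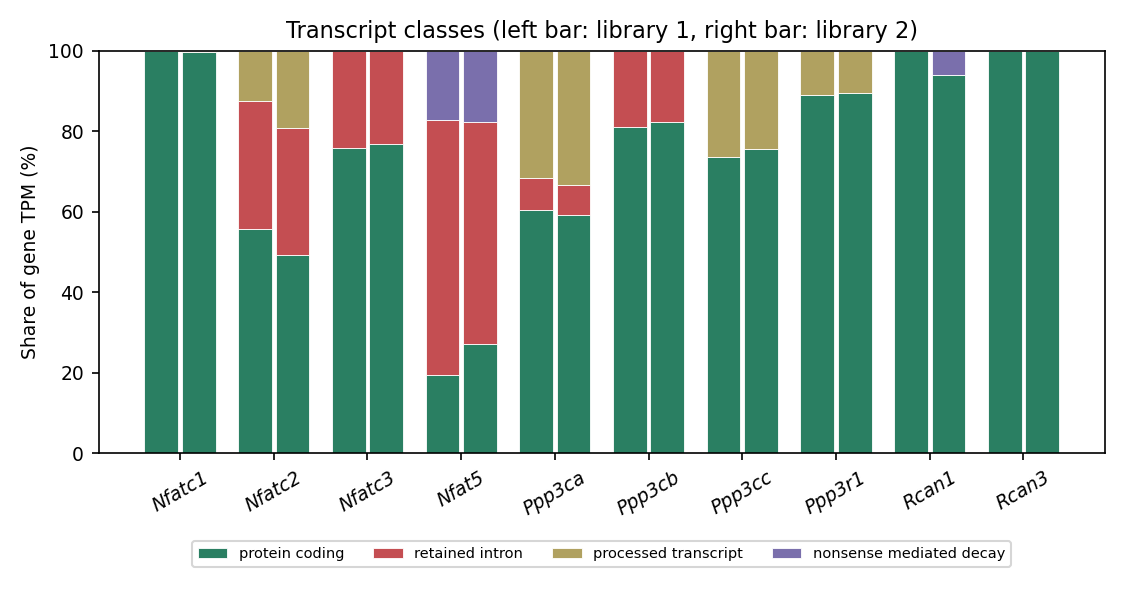
Share of each gene's TPM (vertical axis, percent) by annotated transcript class, library 1 in the left bar and library 2 in the right bar of each pair. Protein-coding transcripts hold 19.5% and 27.1% of Nfat5, where retained introns hold 63.2% and 55.2%, and at least 49.4% of every other gene.

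Nfatc1 is known in lymphocytes for a pair of promoters and a pair of main polyadenylation sites: the short form made from the upstream promoter and the proximal site is the one induced in activated T cells. The annotation has the same layout, with starts 4898 bases apart and ends 41230 bases apart. Transcripts from the upstream start (Nfatc1-202, Nfatc1-204 and Nfatc1-206) held 61.4% of Nfatc1 TPM in library 1 and 63.2% in library 2, and those from the downstream start (Nfatc1-201, Nfatc1-203 and Nfatc1-205) held 38.6% and 36.4%. The upstream-start transcripts have 432 exon bases of their own and the downstream-start transcripts 140, so the starts rest on far fewer bases than the ends. Transcripts with the proximal end, which encode 703 or 717 codons, held 39.5% and 43.2%. Transcripts with the distal end, which encode 813 to 939 codons, held 60.5% and 56.5%. The proximal-end forms have 2410 exon bases of their own. The distal-end forms have 2532 that the proximal-end forms lack, counted with the processed transcript Nfatc1-207, which alone holds 36 of them. Reads can therefore tell the ends apart.

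How starts combine with ends depended more on the estimate. Nfatc1-206, which joins the upstream start to the proximal end, was the leading transcript with 37.6% and 43.2% of TPM. Nfatc1-201, which joins the downstream start to the same end, had 1.84% and 0.0280%. By posterior mean TPM, the model's average over possible assignments, Nfatc1-206 had 30.9% and 33.5% and Nfatc1-201 8.46% and 9.51%. The shares of the starts and ends taken one at a time moved by at most a few percentage points, with 65.5% and 65.4% for the upstream start and 39.3% and 43.0% for the proximal end by posterior mean.

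**Figure D4:**
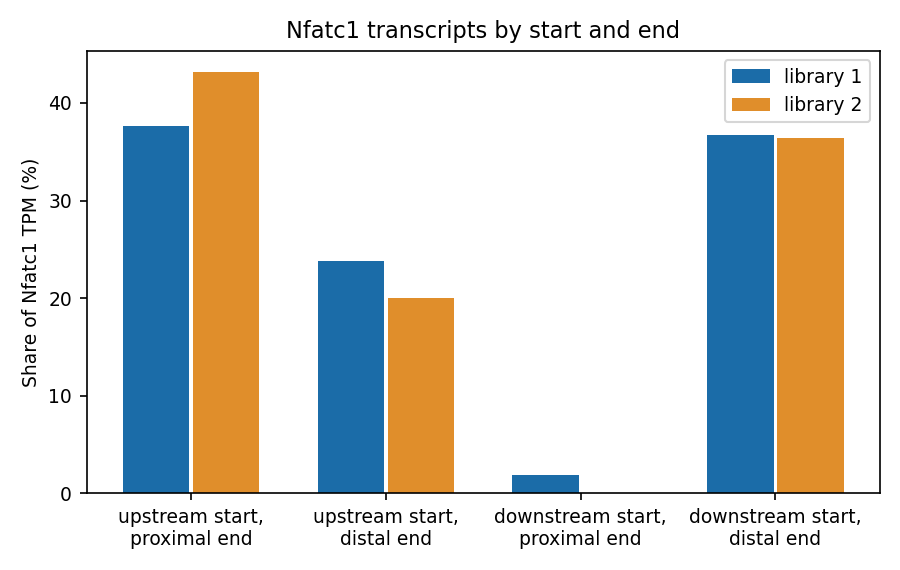
Share of Nfatc1 TPM (vertical axis, percent) held by protein-coding transcripts with each combination of start and end, for library 1 and library 2. The upstream start with the proximal end holds 37.6% and 43.2%, and the downstream start with the proximal end 1.84% and 0.0280%.

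Nfatc2 also has annotated starts some way apart, and the second of them carried most reads. Transcripts of the most upstream start held 3.47% of Nfatc2 TPM in library 1 and 4.36% in library 2. Those of the start 11292 bases downstream held 87.5% and 80.9%. A processed transcript with a start of its own still further downstream, Nfatc2-208, held 9.03% and 14.7%. No protein-coding transcript of the upstream start had an estimated count in either library. The reads of that start, 114.5 and 111.3, went to the processed transcript Nfatc2-203. That is the model's division and no limit on reads, since Nfatc2-203 has 8 exon bases of its own and the protein-coding Nfatc2-209 has 0. By posterior mean TPM Nfatc2-209 had 0.45 and 0.75 TPM, and Nfatc2-203 1.39 and 1.09 TPM. Of the second start, Nfatc2-202 (927 codons) held 28.5% and 32.2% and Nfatc2-204 (923 codons) 26.9% and 17.2%. These differ by 191 exon bases. Retained-intron transcripts held 31.7% and 31.6%, mainly Nfatc2-206 with 20.7% and 20.9%.

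The RefSeq windows of 250 bases before and 50 after these starts are shown because the starts differ so widely in reads (GRCm38.p6, minus strand; chr2:168601608-168601907 for start 1 and chr2:168590316-168590615 for start 2). Capitals mark GGAAA, the core of NFAT binding motifs, or its complement TTTCC.
Nfatc2 start 1: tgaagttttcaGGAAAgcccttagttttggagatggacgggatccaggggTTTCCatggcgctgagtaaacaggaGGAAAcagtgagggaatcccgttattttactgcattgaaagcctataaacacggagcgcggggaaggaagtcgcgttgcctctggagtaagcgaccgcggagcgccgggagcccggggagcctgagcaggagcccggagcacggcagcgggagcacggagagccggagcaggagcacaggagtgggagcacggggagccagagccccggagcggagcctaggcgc
Nfatc2 start 2: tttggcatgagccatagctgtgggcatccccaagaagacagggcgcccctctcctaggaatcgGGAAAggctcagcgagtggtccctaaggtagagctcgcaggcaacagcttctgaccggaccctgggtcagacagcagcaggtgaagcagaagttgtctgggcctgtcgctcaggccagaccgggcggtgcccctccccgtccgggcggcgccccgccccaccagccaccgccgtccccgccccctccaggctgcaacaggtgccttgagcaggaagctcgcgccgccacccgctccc
The window of start 1 holds 3 such matches and that of start 2 holds 1. Of all 32851 RefSeq windows of this length, 61.3% hold at least 1 and 9.42% hold at least 3. A match to a short motif is a description of the letters and not a binding site.

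Nfatc3 was carried by Nfatc3-201 (1076 codons), with 71.3% of TPM in library 1 and 72.1% in library 2, and by the retained-intron transcript Nfatc3-203 from the same start, with 20.7% and 20.0%. The start 793 bases upstream held 4.47% and 4.67%. In counts, Nfatc3-201 held 85.7% and 86.1%. These shares differed little between the libraries.

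For Nfat5 the leading transcript depended on the unit, and neither leader encodes the full protein. By TPM it was the retained-intron transcript Nfat5-212, with 44.1% in library 1 and 40.5% in library 2. By counts it was Nfat5-206, annotated as a target of nonsense-mediated decay, with 39.5% and 39.8%, or 958.5 and 949.8 estimated counts. Nfat5-206 spans 13443 bases and differs from the protein-coding Nfat5-214 (1552 codons) by 63 exon bases, of which 62 form an internal stretch. Its annotated reading frame has 99 codons. Nfat5-214 had no estimated count in either library. That 0 is the model's division and no limit on reads, since Nfat5-214 has no exon base that Nfat5-206 lacks. By posterior mean TPM Nfat5-214 had 0.23 and 0.35 TPM, and Nfat5-206 2.64 and 2.57 TPM. Nfat5-201 (1225 codons) held 14.0% and 17.9% of TPM. Across the other 9 genes the leader was protein-coding and the same by TPM and by counts.

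Among the catalytic genes, Ppp3ca-201 (521 codons) held 51.3% of Ppp3ca TPM in library 1 and 47.5% in library 2. Ppp3ca-202 (511 codons) starts 646 bases upstream of Ppp3ca-201, lacks an exon stretch of 30 bases and has a longer 3′ end. It held 8.98% and 11.8% of TPM but 22.3% and 28.5% of counts. The processed transcript Ppp3ca-203, 990 bases long, held 31.7% and 33.0% of TPM. Ppp3cb was divided among Ppp3cb-205 (524 codons) with 29.9% and 33.5%, Ppp3cb-206 (497 codons) with 24.9% and 22.8%, and Ppp3cb-202 (525 codons) with 22.4% and 23.2%. Ppp3cb-206 ends upstream of the others and has 956 exon bases that Ppp3cb-205 lacks. A calcineurin beta form with an alternative C-terminus, which lacks the usual autoinhibitory domain, is known from this gene, but the annotation does not say whether Ppp3cb-206 is that form.

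Ppp3cc-201 (513 codons) held 59.2% and 54.3% of Ppp3cc TPM, Ppp3cc-203 (522 codons) 14.4% and 21.4%, and the processed transcript Ppp3cc-202 26.4% and 24.3%. Ppp3cc shares 91 exon bases with the antisense gene Gm49417, which stood at 1.96 and 0.73 TPM. Ppp3r1-201 (170 codons) held 89.1% and 89.5% of Ppp3r1, the smallest difference between libraries among the leading transcripts of the 10 genes by TPM. Rcan3-201 (239 codons) held 60.2% and 54.4% of Rcan3 TPM but 92.8% and 91.2% of its counts, since Rcan3-202 and Rcan3-203 are short transcripts of 583 and 724 bases.

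Rcan1 is known for alternative first exons: the more downstream of its main promoters is the one that calcineurin and NFAT induce. In the annotation these are the start 4721 bases from the most upstream one (Rcan1-202 and Rcan1-206) and the start 70790 bases from it (Rcan1-201 and Rcan1-207). Most reads were placed on the first of them, with 541.3 of 543 estimated counts in library 1 and 449.0 of 473 in library 2. The downstream start had 0 in both libraries, although its transcripts hold 486 exon bases found in no transcript of the other starts. Reads on the 2008 exon bases that Rcan1-201 shares with Rcan1-202 are divided by the model, so for those bases the 0 is no limit. Within Rcan1, reads on the bases of its own can go only to the downstream start, and none were placed there. Of these bases, 182 form a stretch of Rcan1-201 that Rcan1-202 lacks. Rcan1-203, from a start of its own between them, had 0 and 18.9 estimated counts. By posterior mean TPM, which gives every annotated transcript some weight, the starts had 77.2% and 76.1% for the upstream and 7.01% and 5.48% for the downstream one.

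Which transcript of the start with most of the reads carried them could not be told. Library 1 had 541.3 estimated counts on Rcan1-202 and 0 on Rcan1-206, and library 2 had 0 on Rcan1-202 and 449.0 on Rcan1-206. The transcripts have 2319 exon bases in common and differ by 5, although their annotated reading frames have 251 and 198 codons. Rcan1 was the only one of the 10 genes whose leading transcript differed between the libraries.

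**Figure D5:**
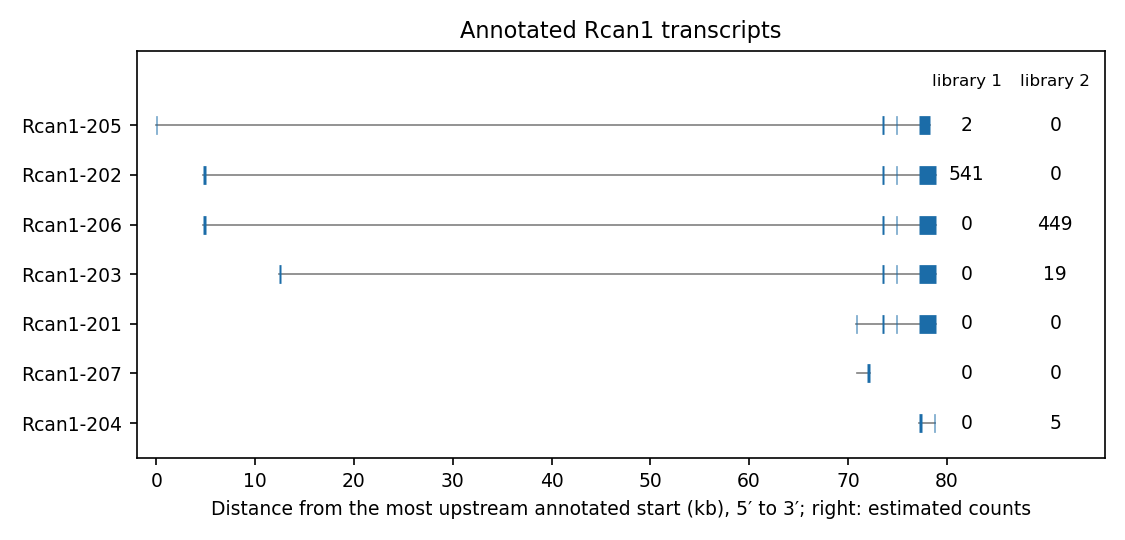
Annotated Rcan1 transcripts drawn 5′ to 3′ by distance in kb from the most upstream start (horizontal axis), with exons as blocks, introns as lines and estimated counts per library at the right. Rcan1-202 has 541 and 0 counts, Rcan1-206 has 0 and 449, and the transcripts of the start near the 3′ end, Rcan1-201 and Rcan1-207, have 0 in both libraries.

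The RefSeq windows of Rcan1 start 2, with most of the reads, and start 4, with no estimated count, follow. They are on GRCm38.p6, minus strand (chr16:92466120-92466419 for start 2 and chr16:92400029-92400328 for start 4), with GGAAA or TTTCC in capitals.
Rcan1 start 2: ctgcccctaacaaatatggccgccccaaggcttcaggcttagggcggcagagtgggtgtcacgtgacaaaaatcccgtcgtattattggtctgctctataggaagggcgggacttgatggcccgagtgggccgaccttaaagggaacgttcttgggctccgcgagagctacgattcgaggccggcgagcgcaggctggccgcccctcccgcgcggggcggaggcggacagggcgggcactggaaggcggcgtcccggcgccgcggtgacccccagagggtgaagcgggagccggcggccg
Rcan1 start 4: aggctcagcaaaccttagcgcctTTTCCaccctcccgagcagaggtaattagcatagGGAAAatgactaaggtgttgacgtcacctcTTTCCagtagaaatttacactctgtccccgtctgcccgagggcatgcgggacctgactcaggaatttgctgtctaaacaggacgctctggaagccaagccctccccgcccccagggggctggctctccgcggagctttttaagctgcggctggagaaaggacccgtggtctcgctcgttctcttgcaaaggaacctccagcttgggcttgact
The window of start 2 holds 0 matches, and that of start 4, the one with no estimated count, holds 3. It also holds 1 match to TGANTCA, the motif of AP-1 proteins that bind DNA together with NFAT, which 7.81% of all windows hold. No match says only that these letters are not in the window. Of the 10 genes, 7 had a RefSeq window, 10 windows in all. The number of GGAAA or TTTCC matches was 4 for Ppp3cb, 2 for Nfat5, 1 for Rcan3 and 0 for Ppp3r1. For Nfatc3 it was 1 at start 1 and 0 at start 2, the start with most of the reads.

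Of the listed genes around this pathway, 51 were matched by symbol and 41 of these were detected. Proteins that bind or regulate calcineurin were detected for 9 of 11 genes and include very abundant transcripts. Ppia, which encodes cyclophilin A, the target of ciclosporin, stood at 3636 TPM in library 1 and at 3608 TPM in library 2. The M4 tables gave Ppia only 100 and 94 reads, against 54409 and 52610 estimated counts in the M21 tables. Calm2, a calmodulin gene, stood at 417.4 and 392.2 TPM. The undetected members were the anchor protein gene Akap5, at 1.21 and 0.71 TPM, and Homer2, at 0.34 and 0.40 TPM. The kinases that put phosphates back on NFAT proteins were detected for 10 of 10 genes, led by the casein kinases Csnk1a1 at 228.3 and 224.6 TPM and Csnk1d at 134.7 and 109.1 TPM and by the p38 kinase Mapk14 at 86.5 and 86.6 TPM.

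Of the matched nuclear transport and retention genes 2 of 3 were detected, the exportin Xpo1 at 96.2 and 92.3 TPM and the importin Kpnb1 at 27.7 and 27.3 TPM, while the kinase gene Lrrk2 stood at 0.41 and 0.27 TPM. A further listed symbol, Nron, belongs to 2 annotated genes and was left out of these counts. Genes known as NFAT targets in T cells were detected for 14 of 17. The highest were the interleukin-2 receptor gene Il2ra, at 364.4 TPM in library 1 and at 371.5 TPM in library 2, the inhibitory receptor gene Ctla4 at 224.5 and 220.8 TPM, and the costimulatory receptor gene Tnfrsf9 at 195.7 and 172.8 TPM. The undetected members were the cytokine genes Il2, at 1.06 and 0.36 TPM, and Il4, at 1.23 and 0.44 TPM, and the receptor gene Havcr2, at 1.12 and 0.48 TPM. Il2, Il4, Havcr2 and Akap5 each passed 1 TPM in library 1 alone. Il2ra and Ctla4 are also Treg marker genes. Osmotic stress genes driven by Nfat5 were detected for 6 of 7, led by the aldose reductase gene Akr1b3 at 287.1 and 262.1 TPM, the taurine transporter Slc6a6 at 72.9 and 56.5 TPM and the amino acid transporter Slc38a2 at 66.5 and 56.6 TPM. The betaine transporter gene Slc6a12 was not detected, at 0.06 and 0 TPM. Akr1b3 had 273 and 258 reads in the M4 tables against 7634 and 6664 estimated counts in the M21 tables.

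Between the libraries, Nfatc1, Nfatc2 and Ppp3cc had more reads in library 1 than their depth accounts for. Their log2 ratios of library 1 over library 2 were 0.15 for Nfatc1 (adjusted p = 2.48e-18), 0.29 for Nfatc2 (adjusted p = 5.06e-23) and 0.10 for Ppp3cc (adjusted p = 0.0228), by exact two-sided binomial tests with Benjamini-Hochberg adjustment over 18746 genes. These tests cover counting error only, and they called 36.5% of all genes tested (20.2% with no count filter), against 3 of the 10 here. All 3 were higher in library 1, as were 19.2% of all genes tested, and 17.2% were called higher in library 2. The other 7 genes had log2 ratios from -0.09 for Nfat5 to 0.08 for Rcan1 and were not called. With edgeR's exact test and a common dispersion that allows for spread beyond counting, 2.98% of all genes and 0 of the 10 were called. On simulated counts that test did not recover changes as small as those of the 10 genes, whose largest was 1.22-fold, so its 0 calls say nothing about them. In the M4 counts 14.4% of 12147 genes passed the binomial test, 9.76% with more reads in library 1. Of the 10, it called Nfatc2 with a log2 ratio of 0.27 on 2116 and 1653 reads, while the ratio of Nfatc1 was 0.01. By the same binomial test on the M21 counts, 2 of 11 calcineurin regulators were called higher in library 1 and 4 higher in library 2, and among the NFAT kinases it was 2 and 2 of 10. None of the 3 matched transport genes was called; a gene with the shared symbol Nron, left out of that list, had 12 estimated counts in library 1 against 32 in library 2, and was called higher in library 2 (log2 ratio -1.49, adjusted p = 0.00533 by the exact binomial test). Of the T cell targets, 6 of 17 were called higher in library 1 and 2 lower there. Of the 6 Nfat5 targets tested, 4 were called higher in library 1 and 0 lower. Nfatc2 was thus higher in library 1 in both tables, and the differences in Nfatc1 and Ppp3cc were not called in the M4 counts. For Nfatc1 the M4 counts were 26.9% and 30.2% of the M21 counts, so the M4 and M21 ratios are not equal measures. As these are libraries of 1 biosample, no condition is compared.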

How the data were processed

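PolyA-selected RNA of 1 Treg biosample was sequenced as 2 technical libraries. Per the file headers, the deposited M21 gene and transcript tables hold estimated counts, in which the authors' model divides shared reads, with TPM, FPKM, posterior mean TPM, posterior standard deviations of counts (a score here) and isoform percent. The authors also deposited whole-number counts by gene on GENCODE M4. Both are on mm10, per the labels. The aligner, quantifier and strandedness were not given in the sources used here. Effective length equalled length less 49 bases in the M21 tables. M4 counts per length or per kilobase used the M21 gene length of each library, a mean over transcripts weighted by their TPM.

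The 10 genes and the gene lists were chosen with earlier results of these data known. Named were all 10 genes and, of each pathway list, the 3 highest genes and every undetected one. A gene under this rule is not reported here. A symbol shared by 2 annotated genes was left out. Coordinates are 1-based, from GENCODE M21 on GRCm38. Starts within 500 bases were joined. Motifs were searched on both strands.

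Estimated counts were rounded and compared between libraries, for genes with 10 or more counts in all, by exact two-sided binomial tests (scipy 1.17.1) on TMM-scaled sizes (edgeR 4.0.16), adjusted by Benjamini-Hochberg at 0.05, with a prior count of 0.5 in log2 ratios. The test was tested on simulated data. Since 1 library a side leaves edgeR's quasi-likelihood fit without residual degrees of freedom, edgeR's exact test with a common dispersion was the alternative. DESeq2 1.42.0 gave further size factors. PCR copies are not independent molecules, so these tests cover counting error only.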

Additional observations from a re-analysis of the deposited data

How the results depend on the processing

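No paired analysis was possible because there is 1 group, whose 2 libraries come from 1 biosample. All 10 genes were detected at 0.1, 1 and 5 TPM, by FPKM, by posterior mean TPM and in each library alone. The pathway genes detected numbered 41, with a range of 37 to 47 over the TPM minimums and 41 to 45 with 1 library left out. The median level of the 10 genes over library medians was 61.1 TPM, 76.5 from M4 counts per kilobase, 47.4 from protein-coding transcripts only, and 56.9 to 65.3 with 1 library left out. The Ppp3ca share of the catalytic sum was 45.0%, 41.5% by expected counts, 41.1% from M4 counts, 39.0% from protein-coding transcripts, and 44.3% to 45.7% with 1 library left out. The Nfatc1 share of the NFAT sum was 45.6%, 43.1% by expected counts, 40.8% from M4 counts, 56.7% from protein-coding transcripts, and 45.0% to 46.1% with 1 library left out. The median share of the leading transcript was 53.1%, 49.0% by posterior mean TPM, 72.5% among protein-coding transcripts, and 50.9% to 55.3% with 1 library left out. Counting Rcan1-202 and Rcan1-206 as 1 transcript, an alternative chosen after seeing the data, left it at 53.1%. It could not have changed, since Rcan1-206 had 0 TPM in library 1 and Rcan1-202 had 0 TPM in library 2. The number of genes called between libraries was 3, also with library totals, DESeq2 size factors or no count filter, 0 with edgeR's dispersion, a test too weak for changes of this size, and 1 with M4 counts. With M4 counts the log2 ratio changed sign for 4 genes that no test called, to 0.00851 for Ppp3ca, 0.0468 for Ppp3cb, -0.0185 for Ppp3r1 and -0.0110 for Rcan3. The cause of these shifts was not tested. Depth limits Rcan1 most, whose transcripts rest on 543 and 473 estimated counts.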
